A study of Mus musculus with 8 samples.

Results

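The clustered histone genes of the mouse were examined in RNA from colonic epithelial cells. They were taken as every gene symbol of the transcript table that begins with Hist1h, Hist2h, Hist3h or Hist4h, and 69 of the 35963 symbols did. The 69 comprised 6 H1, 19 H2A, 19 H2B, 12 H3 and 13 H4 genes. By the RefSeq annotation of GRCm38, 55 lie on chromosome 13, 10 on chromosome 3, 3 on chromosome 11 and 1 on chromosome 6. RNA was sequenced in 8 libraries from the proximal colon of mice aged 4 weeks. The 4 libraries labelled Ccna2-KO came from Ccna2 fl/fl vil-Cre mice, in which the villin promoter drives Cre recombinase in intestinal epithelium. The 4 libraries labelled WT came from Ccna2 fl/fl mice, so both groups carried the floxed Ccna2 alleles. The colon was flushed and its epithelial cells were released in CEC buffer, with no sort named in the labels, and the labels do not say that each library came from a separate animal. The comparison asks whether histone transcripts differ where the gene of cyclin A2 is targeted, a cyclin that activates CDK2 in S phase and CDK1 before mitosis.

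Each nucleosome wraps DNA around H2A, H2B, H3 and H4, and H1 binds the linker DNA. Most clustered histone genes are transcribed during S phase, lack introns and give mRNAs that end in a conserved stem-loop instead of a poly(A) tail. The stem-loop is bound by Slbp and cleavage needs the U7 ribonucleoprotein, and in human cells phosphorylation of SLBP by cyclin A with CDK1 has been linked to its loss at the end of S phase. Some clustered histone genes are also known to give polyadenylated transcripts in differentiated cells. No source used here says whether the libraries were selected for poly(A). The labels give total RNA and standard Illumina library protocols, so a level below reflects transcripts as captured and need not be the whole histone mRNA pool.

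The stem-loop is the feature that sets these mRNAs apart, and it was found in a GENCODE transcript of 46 of the 69 genes. The H2B genes Hist1h2bc and Hist2h2be, both among the most counted, had no match. Some genes without a match have a GENCODE transcript shorter than the RefSeq gene, such as Hist1h2ah with 405 against 522 bases. A missing match there need not mean a missing stem-loop. The most counted H1 and H2A genes, the gene with the lowest p and 2 H4 genes show its forms, each read 5′ to 3′ on the gene's strand with the 16 stem-loop bases in capitals.
Hist1h1c: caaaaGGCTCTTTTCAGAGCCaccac
Hist2h2aa1: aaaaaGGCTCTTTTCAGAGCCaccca
Hist1h3d: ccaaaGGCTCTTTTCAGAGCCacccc
Hist1h4i: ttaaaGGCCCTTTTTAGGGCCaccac
Hist1h4m: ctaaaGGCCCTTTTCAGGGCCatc
In GRCm38 the capitals lie at chr13:23739512-23739527 on the plus strand for Hist1h1c, chr3:96246032-96246047 on the plus strand for Hist2h2aa1 and chr13:23576244-23576259 on the plus strand for Hist1h3d. They lie at chr13:22040966-22040981 on the minus strand for Hist1h4i and chr13:21812129-21812144 on the plus strand for Hist1h4m. The form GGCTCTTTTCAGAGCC was shared by 26 genes of H1, H2A, H2B and H3. The form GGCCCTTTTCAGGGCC was found in 7 genes, all H4. Among the 46 genes, 43 had a RefSeq gene end within 10 bases after the stem-loop. The GENCODE transcript ran at least 100 bases past it in 23 genes, of which 12 held AATAAA or ATTAAA in their last 50 bases. It ended under 100 bases past it in the other 23, of which 1 held such a signal. The median level over 8 libraries was 1.34 CPM (counts divided by the scaled library size) per kb of RefSeq gene in 22 genes with the longer transcript and 0.679 CPM per kb in 22 genes ending near the stem-loop. Those medians describe annotation and level together and were not tested.

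A few facts of the libraries bear on what follows. They held 27162083 to 34386731 estimated counts each. Ccna2 was at 18.2, 26.6, 26.6 and 16.2 CPM in Ccna2-KO libraries 1 to 4, against 54.3, 25.9, 11.9 and 18.3 CPM in WT libraries 1 to 4, a difference of -0.33 ± 0.41 on the log2 scale (SE; adjusted p = 0.673 in edgeR). Its level did not separate the groups and its fold change was 0.24 without WT library 1, so each direction below rests on the labels. The counts are per transcript, and no source used here gives the exons deleted. Library numbers in the labels fall in a low set from 595 to 598, which holds Ccna2-KO library 4 and WT libraries 2 to 4, and a high set from 621 to 641, which holds Ccna2-KO libraries 1 to 3 and WT library 1. Their meaning is not stated. The 15 epithelial markers checked, among them Krt8 and Car1, summed to 48840 to 53732 CPM in Ccna2-KO libraries and 44002 to 48464 CPM in WT libraries, so the labelled cell type was present in all 8. Of the 15, Car2 was higher and 0 were lower. Beside this count and the marker counts that follow, 6.40% of all genes were higher and 5.71% lower. The leukocyte markers summed to 28.4 to 49.3 CPM in Ccna2-KO libraries and 151 to 1081 CPM in WT libraries. Of 18 tested, 12 were lower and 1 was higher, Cd68, and no marker was at 0 throughout a group. The stromal markers summed to 22.8 to 49.8 CPM in Ccna2-KO libraries and 22.1 to 39.7 CPM in WT libraries, and of 8 tested Des was higher and Pecam1 lower. The part of these cells in the histone values was not tested, and in such mixed RNA fewer cells of a type and less RNA per cell cannot be told apart.

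The clustered histone genes took a small share of the counts, and 3 genes held most of it. Together the 69 genes had 11131, 12935, 11728 and 14113 counts in Ccna2-KO libraries 1 to 4, against 12428, 8522, 10595 and 11009 in WT libraries 1 to 4, which was 0.0321% to 0.0521% of the gene counts of a library. Hist1h2bc, an H2B gene, held 49.6% of the clustered histone counts over all libraries. Hist1h1c, a linker histone gene, held 30.2% and Hist2h2aa1, an H2A gene, held 7.92%, so that these 3 held 87.7%. The next gene, Hist2h2be, held 1.10%. Counts were found for 66 genes, and the 3 genes with 0 counts in all libraries were Hist1h2aa, Hist1h2ba and Hist1h4n. Hist1h2aa and Hist1h2ba encode the testis forms of H2A and H2B. A test across genes kept 34 of the 69, namely 4 H1, 8 H2A, 9 H2B, 6 H3 and 7 H4 genes. The other 35 were too low, with at most 145 counts over the 8 libraries, and are described only by their counts.

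**Figure D1:**
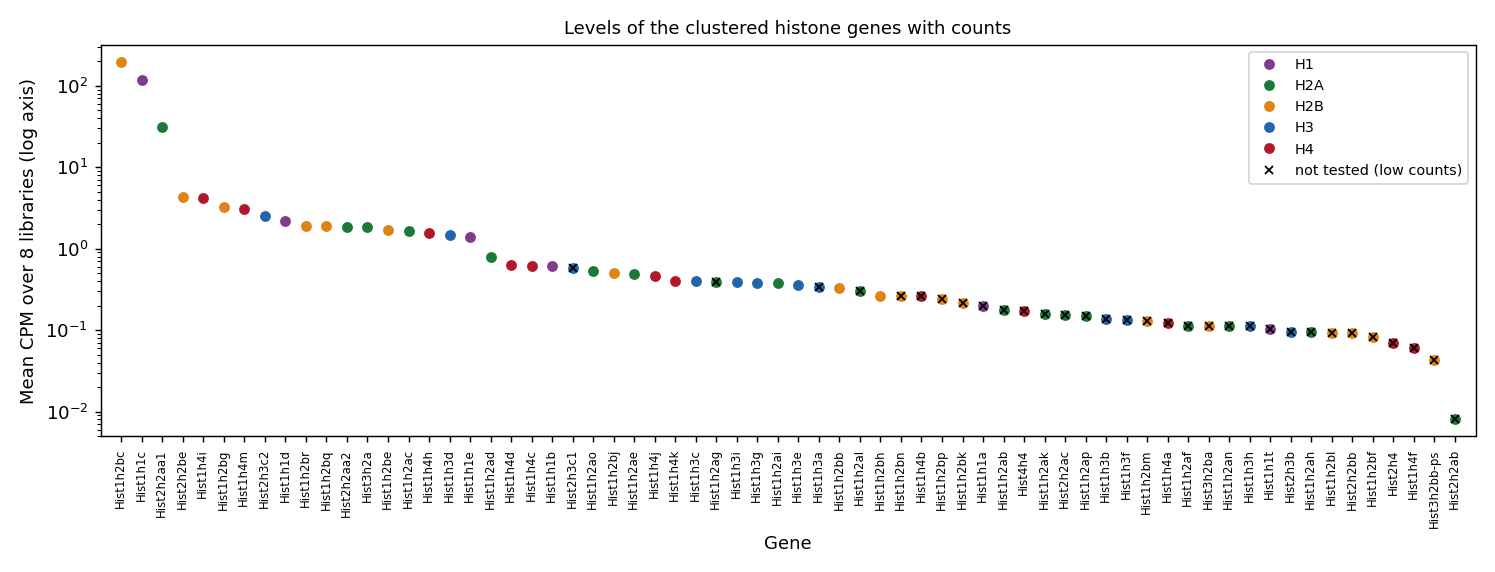
Mean CPM over 8 libraries on a log axis for the 66 clustered histone genes with counts, ordered by level and coloured by histone type, with crosses on genes too low to test and no correction for gene length. Hist1h2bc, Hist1h1c and Hist2h2aa1 stand above 30 CPM, and the gene in the next place, Hist2h2be, averages 4.26 CPM.

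Of the 34 genes tested, 1 was higher and 0 were lower in Ccna2-KO libraries at an adjusted p of 0.05 (edgeR quasi-likelihood test, Benjamini-Hochberg adjustment over 15893 genes). Over all genes tested 6.40% were higher and 5.71% were lower, 12.1% together. The 1 gene was Hist1h3d, an H3 gene. At an unadjusted p of 0.05, 7 of the 34 passed, against 26.3% of all genes. The log2 fold change was above 0 in 21 of the 34, against 48.1% of all genes. The median log2 fold change was 0.33 over the 34 genes and -0.01 over all genes. With the library set term the median of the 34 was 0.09, with 19 above 0, and without WT library 1 the median was 0.61 over 36 genes, with 28 above 0. Hist1h2bq and Hist1h2br, whose counts are identical, enter these counts as 2 genes although they are 1 measurement. Groups did not overlap in 3 of the 34, 2 of them higher (Hist1h3d and Hist2h3c2) and 1 lower (Hist1h3e), against 19.0% of all genes, 9.41% higher and 9.60% lower. DESeq2 called 2 of the 34 higher, Hist1h3d and Hist2h3c2, and 0 lower, against 18.6% of all genes called in either direction. With no filter on low counts 2 of 66 genes were higher, Hist1h3d and Hist1h2ap, against 6.85% of all genes called. Summed with its near copy Hist1h2ao in the filtered fit, Hist1h2ap did not pass. Among 37 single histone transcripts 0 passed, against 0.930% of all transcripts. These counts changed when WT library 1 was left out, which leaves every WT library in the low set of library numbers. Then 10 of 36 tested genes were higher and 0 lower, against 15.1% higher and 13.4% lower among 16247 genes, and the 10 were Hist2h2aa2 and Hist1h2ao (H2A), Hist1h2bj, Hist1h2bq and Hist1h2br (H2B), Hist1h3c, Hist1h3d and Hist1h3g (H3) and Hist1h4i and Hist1h4m (H4). With the library set term in the fit, Hist1h3d was higher and Hist2h2be was lower, against 9.29% of all genes higher and 8.90% lower. In both directions together the share of clustered histone genes called was near or below that of all genes in each of these fits, including the one without WT library 1, where 28.5% of all genes were called. In that fit the share called higher was above that of all genes, and this difference was not tested.

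**Figure D2:**
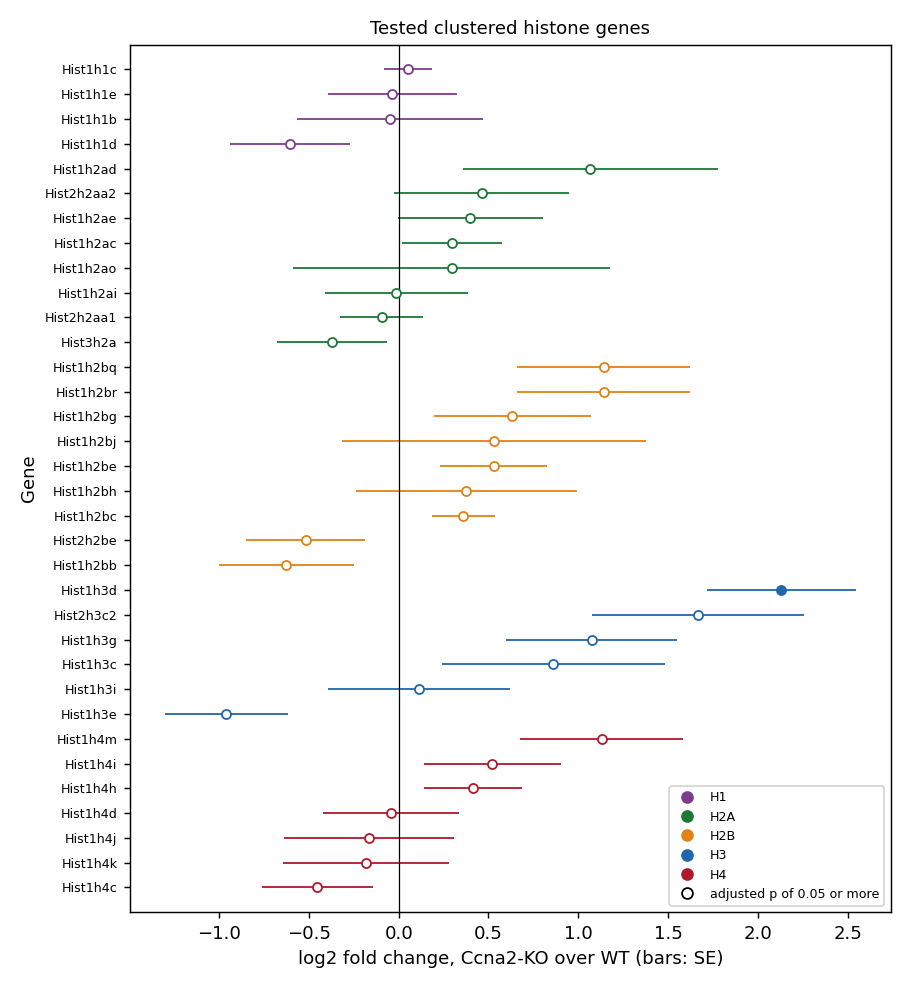
Log2 fold change, Ccna2-KO over WT, with its SE for the 34 tested clustered histone genes, grouped by type. Filled points passed an adjusted p of 0.05, which Hist1h3d did at 2.13. The H3 genes spread from -0.96 to 2.13, and Hist1h1c and Hist2h2aa1 sit near 0.

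By histone type, the summed levels overlapped between the groups for all 5 types. They are a description, since a sum over chosen genes was given no test. H1 genes summed to 128, 101, 120 and 143 CPM in Ccna2-KO libraries 1 to 4, against 138, 103, 111 and 127 CPM in WT libraries 1 to 4. H2A genes summed to 35.6, 34.6, 34 and 56.2 CPM in Ccna2-KO libraries, against 54.6, 40.5, 37.3 and 30.4 CPM in WT libraries. The log2 ratios of the group means were 0.04 for H1 and -0.02 for H2A, and for both types the groups differed by less than the spread within them. Without Hist1h1c the H1 ratio was -0.27, and without Hist2h2aa1 the H2A ratio was 0.22. With all libraries the sign of each thus rests on its most counted gene. With WT library 1 left out as well, these ratios were 0.12 for H1 and 0.72 for H2A, so the H1 sign also rests on that library. H2B genes summed to 195, 229, 193 and 322 CPM in Ccna2-KO libraries, against 216, 186, 167 and 163 CPM in WT libraries, a log2 ratio of 0.36. H3 genes summed to 6.2, 8.37, 7.36 and 14.3 CPM in Ccna2-KO libraries, against 7.04, 4.11, 3.75 and 4.48 CPM in WT libraries, a log2 ratio of 0.90. H4 genes summed to 10.5, 15, 11.3 and 17.3 CPM in Ccna2-KO libraries, against 17.5, 6.03, 6.70 and 8.66 CPM in WT libraries, a log2 ratio of 0.47. In H2B, H3 and H4 the overlap came from WT library 1, since the other WT libraries lay below every Ccna2-KO library. Without WT library 1 the log2 ratios were 0.11 for H1, 0.15 for H2A, 0.45 for H2B, 1.14 for H3 and 0.92 for H4.

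**Figure D3:**
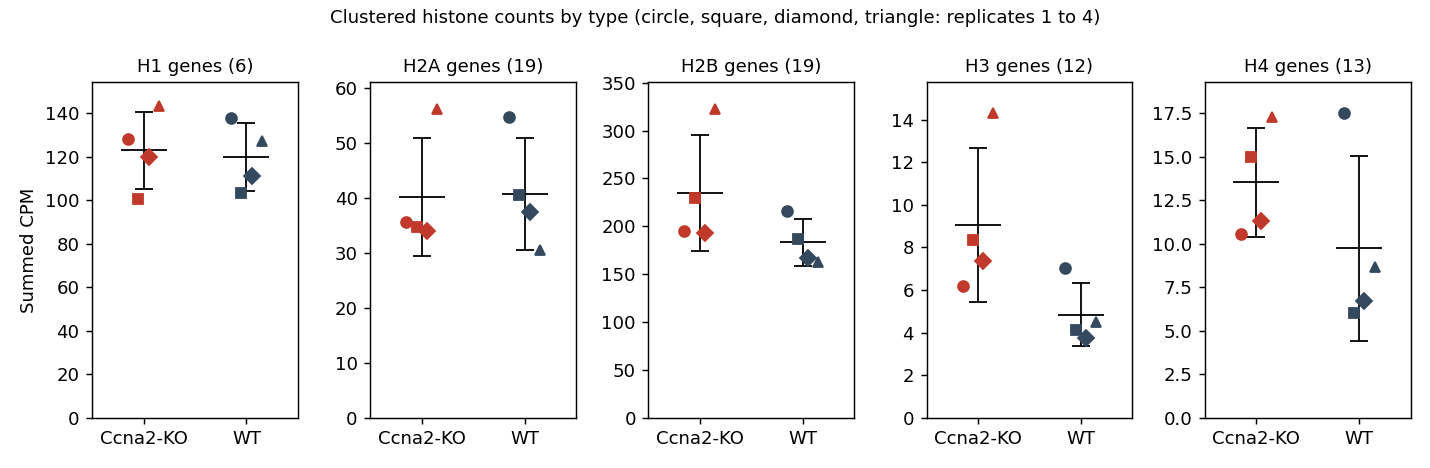
Summed CPM of each histone type by library, with the group mean and SD (n = 4 each) and a symbol for each replicate number. Ccna2-KO library 4 (triangle) is the highest of its group in all 5 panels, and WT library 1 (circle) is the highest of its group in all 5.

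The total of all 69 genes was 421 ± 89.1 CPM in Ccna2-KO libraries and 358 ± 50.3 CPM in WT libraries (SD, n = 4 each). Because 3 genes make up most of it, the total was also taken without Hist1h2bc, Hist1h1c and Hist2h2aa1. The remaining 66 genes summed to 41.1, 59.3, 47.1 and 68.0 CPM in Ccna2-KO libraries 1 to 4, against 71.4, 28.1, 31.2 and 35.4 CPM in WT libraries 1 to 4. WT library 1 was the highest of all 8 libraries, and each of the other WT libraries lay below every Ccna2-KO library. The log2 ratio was 0.38, and 0.77 without WT library 1.

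Among the linker histones, Hist1h1c stood far above the rest. It was at 125, 97.0, 115 and 139 CPM in Ccna2-KO libraries 1 to 4, against 129, 100, 107 and 123 CPM in WT libraries 1 to 4. The values interleaved. The log2 fold change was estimated at 0.05 ± 0.13 (SE; edgeR adjusted p = 0.862). Per kb of RefSeq gene it averaged 161 CPM over all libraries, the highest of the genes with a single short model. Hist1h1d was at 1.79, 1.05, 2.09 and 2.0 CPM in Ccna2-KO libraries and 4.15, 1.64, 2.18 and 2.54 CPM in WT libraries, a log2 fold change of -0.60 ± 0.33 (adjusted p = 0.292). Hist1h1e differed by -0.03 ± 0.36 on the log2 scale (adjusted p = 0.966). No H1 gene passed the test.

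Among the core histones, H2A rested on Hist2h2aa1, which gives one of the common H2A proteins. It was at 27.5, 23.9, 23.8 and 45.3 CPM in Ccna2-KO libraries 1 to 4, against 38.6, 34.8, 31.3 and 24.1 CPM in WT libraries 1 to 4. Ccna2-KO library 4 was the highest of all and Ccna2-KO library 3 the lowest, with a log2 fold change of -0.10 ± 0.23 (SE; edgeR adjusted p = 0.845). Of its stretches of 31 bases, 89.6% also occur in Hist2h2aa2, so the counting could divide reads between these copies. GENCODE genes outside the 69 hold 89.7% of the stretches of Hist2h2aa1, and such genes were not added to the sum that follows. Summed, the copies differed by -0.06 ± 0.22 on the log2 scale. Hist3h2a averaged 1.62 ± 0.195 CPM in Ccna2-KO libraries and 2.09 ± 0.911 CPM in WT libraries (SD, n = 4 each), with an adjusted p of 0.494 in edgeR. Hist1h2ad had the smallest p of the H2A genes. It was at 0.371, 1.08, 0.999 and 1.92 CPM in Ccna2-KO libraries, against 1.15, 0.0399, 0.615 and 0.242 CPM in WT libraries, so that single counts move it. Its log2 fold change was 1.07 ± 0.71 (adjusted p = 0.386).

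H2B was the most counted type because of Hist1h2bc. It was at 182, 208, 180 and 301 CPM in Ccna2-KO libraries 1 to 4, against 194, 177, 156 and 151 CPM in WT libraries 1 to 4. Ccna2-KO library 4 was the highest and WT library 1 lay among the other Ccna2-KO libraries. The fold change was 0.36 ± 0.18 on the log2 scale (SE; adjusted p = 0.234 in edgeR), and p was 0.114 in an exact permutation test of log2 CPM (two-sided), whose smallest possible value with 4 libraries in each group is 0.0286. Nearly all of it was assigned to 1 of its 2 transcript models. That model averaged 215 CPM in Ccna2-KO libraries and 168 CPM in WT libraries, and the other 2.63 CPM in Ccna2-KO libraries and 1.68 CPM in WT libraries. Hist2h2be was at 3.47, 4.35, 3.43 and 2.75 CPM in Ccna2-KO libraries, against 8.85, 3.75, 3.08 and 4.39 CPM in WT libraries. Its log2 fold change was -0.52 ± 0.33 (adjusted p = 0.369), and -0.87 ± 0.22 with the library set term (adjusted p = 0.0266). In that fit Hist2h2be was the only clustered histone gene called lower. Without WT library 1 its log2 fold change was -0.09 ± 0.21 (adjusted p = 0.784). Hist1h2bg was at 2.93, 3.21, 1.56 and 8.24 CPM in Ccna2-KO libraries and 2.16, 2.59, 2.64 and 2.82 CPM in WT libraries, so that Ccna2-KO library 4 was above and Ccna2-KO library 3 below all others (adjusted p = 0.409).

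The H2B genes Hist1h2bq and Hist1h2br had identical counts in every library and 98.3% of the 31-base stretches of Hist1h2bq occur in Hist1h2br, so they are 1 measurement. Each was at 1.38, 4.38, 1.69 and 3.06 CPM in Ccna2-KO libraries 1 to 4, against 2.09, 0.479, 1.08 and 1.09 CPM in WT libraries 1 to 4. WT library 1 lay within the range of the Ccna2-KO libraries and the other WT libraries lay below it. The fold change was 1.14 ± 0.48 on the log2 scale (SE; adjusted p = 0.166 in edgeR), the exact permutation test gave p = 0.0857, and without WT library 1 the log2 fold change was 1.55 ± 0.46 (adjusted p = 0.0318).

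Most H2A and H2B genes lie head to head. There were 13 such arrangements, with 163 to 280 bases between the RefSeq starts, and both genes had counts in 12. Counts, which are not corrected for length here, were often unequal between the neighbours. Hist2h2be had 28.4 times the counts of its neighbour Hist2h2ac. Hist1h2bc and Hist1h2ac lie 239 bases apart, and Hist1h2bc had 118 times the counts, with 218 CPM in Ccna2-KO libraries and 170 CPM in WT libraries against 1.80 CPM in Ccna2-KO libraries and 1.46 CPM in WT libraries for Hist1h2ac. The interval between them, chr13:23683960-23684198 (GRCm38.p6), is shown because it borders the most counted histone gene, Hist1h2bc. It is printed on the minus strand, so that Hist1h2ac begins after the last base. Hist1h2bc begins before the first printed base, on the plus strand. Capitals mark matches to CCAAT, to the TATA box letters TATAAA and to the octamer ATTTGCAT on either strand.
Hist1h2ac to Hist1h2bc: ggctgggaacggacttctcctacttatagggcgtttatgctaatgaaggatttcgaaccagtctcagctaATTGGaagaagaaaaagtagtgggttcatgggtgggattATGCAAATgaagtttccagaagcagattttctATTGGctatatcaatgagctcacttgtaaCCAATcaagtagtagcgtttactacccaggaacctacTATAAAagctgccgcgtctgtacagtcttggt
This interval held 3 matches to CCAAT, 1 to TATAAA and 1 to the octamer, with no base in more than 1 match. In the 250 bases before the start, CCAAT on either strand was found for 82.3% of 62 clustered histone genes with a RefSeq window, against 33.8% of 32851 windows of all genes. TATAAA was found for 46.8% of the 62, against 12.4% of all windows. The octamer was found for 22.6%, against 1.60% of all windows, and its 14 genes were 7 H2A and 7 H2B genes. Windows of head-to-head neighbours overlap, so 1 match can count for both genes and these shares are not of independent genes. CCAAT was in the window of all 6 H1, 18 H2A and 16 H2B genes and of 3 of the 12 H4 genes. A match describes letters in a window and shows no bound factor.

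H3 held the only gene that passed the test. Hist1h3d had 44, 73, 46 and 117 counts in Ccna2-KO libraries 1 to 4, against 19, 14, 14 and 18 counts in WT libraries 1 to 4. Scaled, it was at 1.48, 2.19, 1.44 and 4.59 CPM in Ccna2-KO libraries and 0.662, 0.559, 0.431 and 0.545 CPM in WT libraries. Every Ccna2-KO library was above every WT library, WT library 1 included, and Ccna2-KO library 4 was the highest. Its log2 fold change was 2.13 ± 0.42 (SE; adjusted p = 0.0114 in edgeR), 1.63 without Ccna2-KO library 4 (adjusted p = 0.0107) and 2.38 ± 0.37 with the library set term. The exact permutation test of log2 CPM gave p = 0.0286, the smallest it can give. Of the 31-base stretches of its GENCODE transcript 27.6% occur in another clustered histone gene. That transcript has 1249 bases against 504 in the RefSeq gene, so the share in the counted model can be larger. Per kb Hist1h3d averaged 2.95 CPM over all libraries.

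The 250 bases before the RefSeq start of Hist1h3d, chr13:23575513-23575762 on the plus strand (GRCm38.p6), are shown because it is the one gene called. Capitals again mark CCAAT and TATAAA on either strand, with 3 matches each.
Hist1h3d promoter: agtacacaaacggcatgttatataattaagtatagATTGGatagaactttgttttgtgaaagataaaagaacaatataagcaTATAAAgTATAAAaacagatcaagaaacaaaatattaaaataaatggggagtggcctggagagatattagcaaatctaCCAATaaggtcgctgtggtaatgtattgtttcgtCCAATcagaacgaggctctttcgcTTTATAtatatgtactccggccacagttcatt
Among the 10 H3 genes with a window, 8 held CCAAT and 4 held TATAAA, so neither motif sets Hist1h3d apart.

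Hist2h3c2, another H3 gene, was at 2.59, 3.6, 3.28 and 5.92 CPM in Ccna2-KO libraries 1 to 4, against 1.60, 2.35, 0.184 and 0.757 CPM in WT libraries 1 to 4. The groups did not overlap. The fold change was 1.67 ± 0.59 on the log2 scale (SE; adjusted p = 0.103 in edgeR), DESeq2 gave an adjusted p of 0.0265, and the exact permutation test gave p = 0.0286. It shares 64.2% of its 31-base stretches with Hist2h3c1. GENCODE genes outside the 69 hold 64.2% of the stretches of Hist2h3c2 and 100% of those of Hist2h3c1, and were not added to the sum below. Hist2h3c1 was at 0, 0, 0 and 1.14 CPM in Ccna2-KO libraries and 0, 0, 1.81 and 1.73 CPM in WT libraries, high where Hist2h3c2 was low in the WT group. Summed, the copies had 2.59, 3.6, 3.28 and 7.06 CPM in Ccna2-KO libraries, against 1.60, 2.35, 2.0 and 2.48 CPM in WT libraries, a log2 fold change of 0.96 ± 0.33 (adjusted p = 0.0886). The sum was chosen after the values were seen. Hist1h3e, named for its separated groups after its values were seen, had lower values in the Ccna2-KO group, with 0.303, 0.120, 0.281 and 0.275 CPM in Ccna2-KO libraries and 0.557, 0.359, 0.400 and 0.576 CPM in WT libraries. Its log2 fold change was -0.96 ± 0.34 (adjusted p = 0.107) on 4 to 19 counts per library. Summed with its near copy Hist1h3f the groups overlapped and the change was -0.53 ± 0.33. Of the 6 tested H3 genes 5 had a log2 fold change above 0, and only Hist1h3d passed.

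H4 was led by Hist1h4i, at 4.25, 5.40, 3.99 and 6.24 CPM in Ccna2-KO libraries 1 to 4, against 6.66, 2.27, 1.88 and 3.03 CPM in WT libraries 1 to 4. WT library 1 was the highest of all 8 and the other WT libraries the lowest. The fold change was 0.52 ± 0.38 on the log2 scale (SE; adjusted p = 0.437 in edgeR), and 1.05 ± 0.24 without WT library 1 (adjusted p = 0.0104). Hist1h4m was at 2.73, 5.19, 2.59 and 6.2 CPM in Ccna2-KO libraries and 3.80, 1.20, 1.38 and 1.24 CPM in WT libraries. Its log2 fold change was 1.13 ± 0.45 (adjusted p = 0.147; exact permutation p = 0.0857), and 1.70 ± 0.35 without WT library 1 (adjusted p = 0.00615). Of its 31-base stretches 91.7% also occur in Hist1h4n, which was listed at 0 throughout. Hist1h4h differed by 0.41 ± 0.27 on the log2 scale (adjusted p = 0.386). The other 4 tested H4 genes had log2 fold changes from -0.45 to -0.04 and did not pass.

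**Figure D4:**
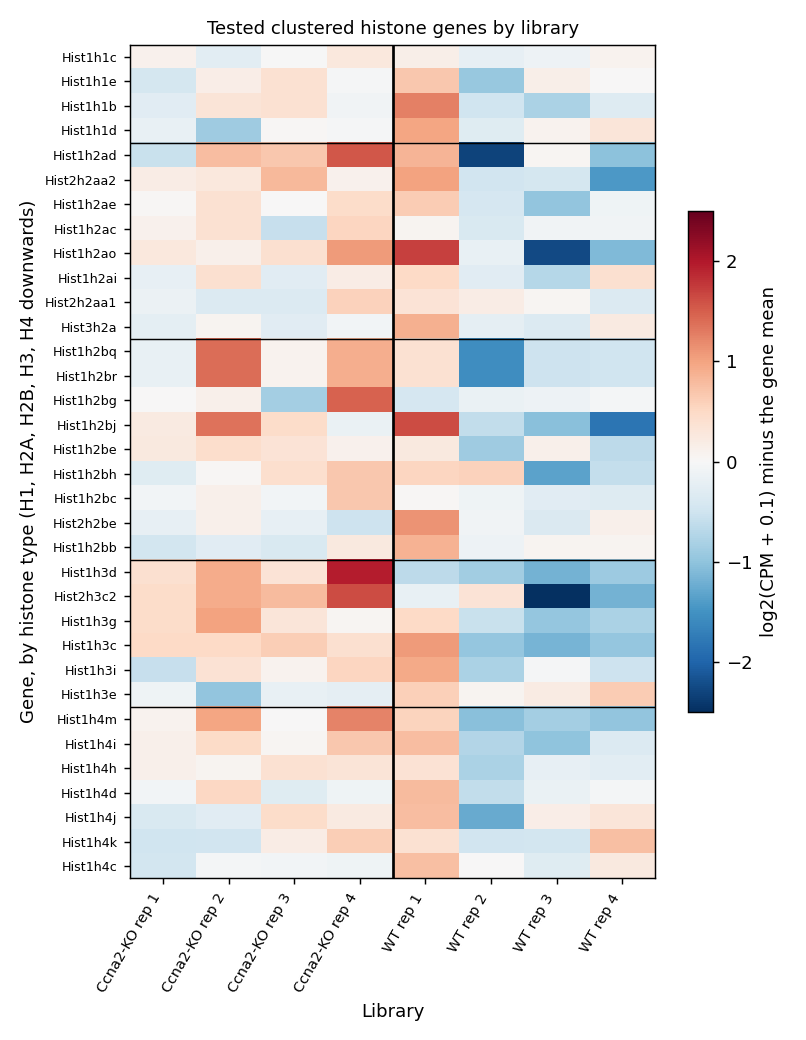
Log2(CPM + 0.1) of each tested gene minus its mean over 8 libraries, with genes grouped by type and Ccna2-KO libraries left of WT libraries. WT library 1 is red in most rows while WT libraries 2 to 4 are mostly blue, and Hist1h3d is above its mean in the 4 Ccna2-KO libraries alone.

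WT library 1 stood apart across the family. It held the highest value of 36 of the 66 genes with counts, Ccna2-KO library 4 of 14, Ccna2-KO library 2 of 8 and the other 5 libraries of 0 to 4 each. The 34 tested genes, each centred on its mean over the libraries, averaged -0.06, 0.31, 0.12 and 0.49 on the log2 scale in Ccna2-KO libraries 1 to 4, against 0.64, -0.56, -0.57 and -0.36 in WT libraries 1 to 4. S phase genes had a like order in the WT group, with 0.49, 0.82, 0.70 and 0.01 in Ccna2-KO libraries and 0.52, -0.88, -0.88 and -0.79 in WT libraries. In Ccna2-KO library 4 they parted, since the histone genes were at the highest value of that group and the S phase genes at the lowest. RNAs without a poly(A) tail, such as Rn7sk and Rpph1, averaged -0.84, -0.72, -0.58 and 0.14 in Ccna2-KO libraries, against 0.41, 0.55, 0.25 and 0.78 in WT libraries. Ccna2-KO library 4 was thus also the highest of its group for RNAs that lack a tail, at 74.3 CPM in sum against 17.8 to 20.4 CPM in the other Ccna2-KO libraries and 61.7 to 192 CPM in WT libraries. Rn7sk made up 56.7 of these 74.3 CPM, and Snora73a and Snora73b were not highest there, at 2.47 and 2.98 CPM against 2.90 and 3.74 CPM in Ccna2-KO library 1. The part of RNA capture in the histone values was not tested.

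**Figure D5:**
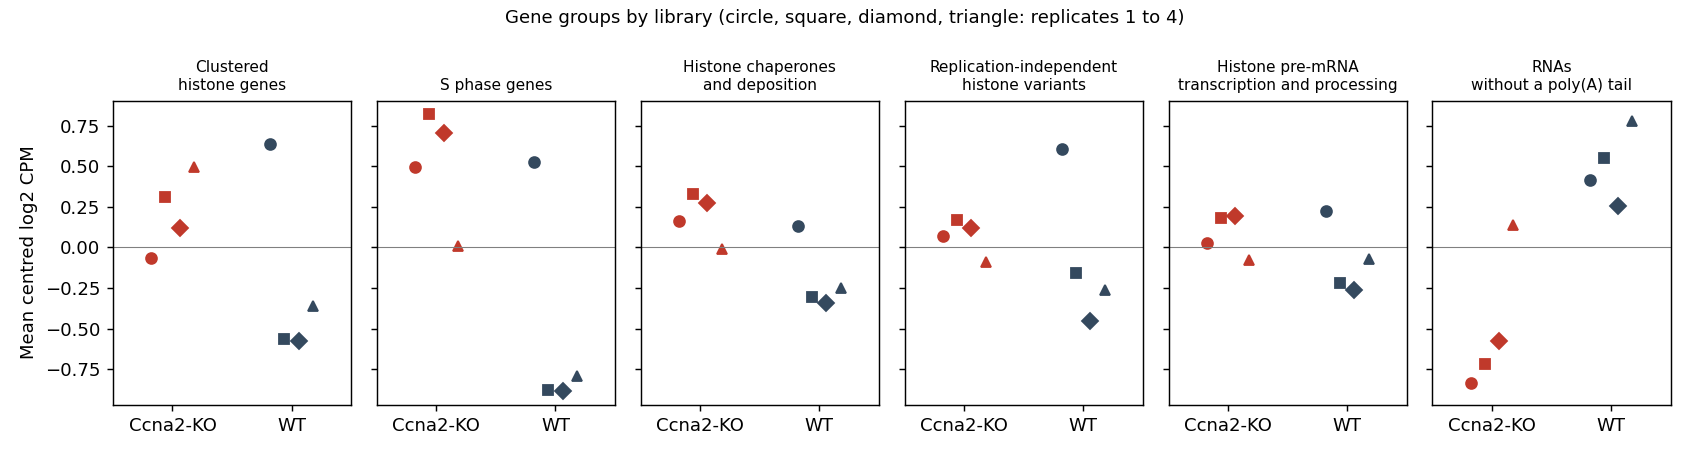
Mean centred log2 CPM of the tested genes of 6 groups in each library, Ccna2-KO left of WT, with a symbol for each replicate number. WT library 1 (circle) lies above the other WT libraries in the first 5 panels. Ccna2-KO library 4 (triangle) is the highest of its group for clustered histone genes and RNAs without a poly(A) tail and the lowest for S phase genes.

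Genes of S phase and of histone deposition were set beside the histone genes. Over all genes 6.40% were higher and 5.71% lower, and 15.1% and 13.4% without WT library 1. Of 36 S phase genes tested 10 were higher and 0 lower, with a median log2 fold change of 0.87, and without WT library 1 the count was 34 higher. Rrm2, a subunit of ribonucleotide reductase, averaged 72.8 ± 19.4 CPM in Ccna2-KO libraries and 10.1 ± 5.75 CPM in WT libraries (SD, n = 4 each), a log2 fold change of 2.85 ± 0.36 (SE; edgeR adjusted p = 0.00184). Ccne1, the cyclin E1 gene, rose by 2.11 ± 0.35 (adjusted p = 0.00563). Among 28 histone chaperones and deposition factors 3 were higher and 0 lower, with a median of 0.23, and without WT library 1 the count was 13 higher and 2 lower. Asf1b, which hands H3 and H4 to assembly factors, averaged 22.5 ± 5.91 CPM in Ccna2-KO libraries and 5.20 ± 3.49 CPM in WT libraries, a log2 fold change of 2.12 ± 0.40 (adjusted p = 0.00960). Chaf1a, a subunit of the CAF-1 assembly complex, rose by 1.47 ± 0.32 (adjusted p = 0.0178), and Mms22l, which acts with Tonsl at replication forks, rose by 1.12 ± 0.21 (adjusted p = 0.00974). Chaf1a did not pass when Ccna2-KO library 2 or 3 or WT library 2, 3 or 4 was left out. Hjurp, the chaperone of the centromeric H3 form, differed by 0.22 ± 0.09 (adjusted p = 0.173). In the main fit the share of chaperones called was near that of all genes. Without WT library 1 the share of chaperones called higher was above that of all genes. No difference between these groups and the histone genes was tested.

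Of 24 genes for histone mRNA transcription and processing 2 were higher and 0 lower, with a median log2 fold change of 0.16, and without WT library 1 the count was 9 higher. The main count is near the 6.40% of all genes called higher. Without WT library 1 the share called higher was above the 15.1% of all genes, and this difference was not tested. Eri1, an exonuclease that trims and degrades histone mRNA, averaged 31.3 ± 3.63 CPM in Ccna2-KO libraries and 21.4 ± 1.58 CPM in WT libraries (SD, n = 4 each; log2 fold change 0.55 ± 0.12, SE, edgeR adjusted p = 0.0155). Cstf2, part of a cleavage complex shared with polyadenylated mRNAs, rose by 0.57 ± 0.15 (adjusted p = 0.0411). Eri1 did not pass without Ccna2-KO library 2 or 3, and Cstf2 did not pass without any of Ccna2-KO libraries 1 to 3 or WT libraries 2 to 4, left out in turn. With the replicate block neither passed (adjusted p = 0.0700 for Eri1 and 0.105 for Cstf2), and Cstf2 missed the threshold with upper quartile scaling (adjusted p = 0.0514). Over all alternatives run the log2 fold changes were 0.41 to 0.63 for Eri1 and 0.39 to 0.72 for Cstf2. Slbp, the stem-loop binding protein, was at 57.3, 67.6, 54.9 and 50.1 CPM in Ccna2-KO libraries 1 to 4, against 52.3, 42.0, 42.3 and 45.7 CPM in WT libraries 1 to 4. WT library 1 lay within the range of the Ccna2-KO libraries. The log2 fold change of Slbp was 0.34 ± 0.12 (adjusted p = 0.104), and 0.41 without WT library 1, where it passed.

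The counts in this paragraph stand beside 6.40% of all genes higher and 5.71% lower, and 15.1% and 13.4% without WT library 1. Of 11 replication-independent histone variants tested 0 were higher and 1 lower, with a median log2 fold change of 0.18. Without WT library 1 the count was 6 higher and 1 lower. In the main fit 1 variant was called. The 1 was H2afy2, a macroH2A gene, at 0.270 ± 0.128 CPM in Ccna2-KO libraries and 0.899 ± 0.498 CPM in WT libraries (SD, n = 4 each; log2 fold change -1.70 ± 0.45, SE, edgeR adjusted p = 0.0397), and it did not pass when any of the 4 Ccna2-KO libraries or WT library 2 or 4 was left out. Each H3.3 gene had more counts than all clustered H3 genes together. H3f3b, which encodes H3.3, averaged 709 ± 47.8 CPM in Ccna2-KO libraries and 857 ± 104 CPM in WT libraries (adjusted p = 0.183). H3f3a, which encodes the same protein, averaged 365 ± 28.8 CPM in Ccna2-KO libraries and 366 ± 78.7 CPM in WT libraries (adjusted p = 0.996). H2afz, the H2A.Z gene, averaged 105 ± 12.1 CPM in Ccna2-KO libraries and 62.6 ± 34.9 CPM in WT libraries (adjusted p = 0.156), and without WT library 1 its log2 fold change was 1.22 and passed. Among 8 tested RNAs without a poly(A) tail 0 were higher and 1 was lower, Snora73a, with a median log2 fold change of -0.81. Rn7s1 and Rn7s2, whose counts are identical in every library, enter this count, this median and the averages above as 2 genes although they are 1 measurement. Snora73a passed with WT library 1 left out and with no other library left out, and without WT library 1 the count was 2 lower.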

How the data were processed

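The authors deposited estimated counts for 107193 RefSeq transcripts in 8 libraries. The submitters' processing notes name the build GRCm38 (mm10) and kallisto, its version not given in the sources used here. This program divides reads that fit several transcripts, so near-identical histone genes are uncertain. In GENCODE transcripts 39 of the 69 genes (16 of the 34 tested) have over 50% of their 31-base stretches in another. Some GENCODE transcripts run far past the RefSeq models that were counted, so the shares in those models can be larger. Transcripts of a symbol were summed and the sums rounded to whole counts. The 687 transcripts without a symbol (3.19% to 5.51% of counts) were left out. No library pair within a group matched within sampling noise. P-values measure the spread between libraries.

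Genotype was tested without a covariate by the robust quasi-likelihood F test of edgeR 4.0.16 (R 4.3.3), after filterByExpr and TMM scaling, with Benjamini-Hochberg adjustment over 15893 genes. CPM used TMM-scaled sizes. In data simulated from these libraries (15638 genes), the test recovered 53.1% of 96 genes given a log2 change of 1 and 92.9% of 98 given a change of 2, and 5.33% of calls were false. Recovery was not taken for the clustered histone genes, most of which have low counts.

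Members and gene lists were chosen with earlier results of these data known. The genes named were, in each type, those called, the 3 most counted and the one with the smallest p. In each other list they were drawn from the 3 with the smallest p and the 2 most counted, with Cd68 and Hist1h3e added after their values were seen. Rpph1 and Snora73b were named outside this rule, as further RNAs without a poly(A) tail. Alternatives were upper quartile and RLE scaling, dropping the filter, a minimum of 1 CPM throughout a group, limma 3.58.1 voom, DESeq2 1.42.0, non-robust estimates, a replicate block, a library set term, single transcripts and leaving out each library. Merging near copies was added after seeing the data, and so was leaving out the 3 most counted genes. Gene positions and promoter windows come from RefSeq (GRCm38.p6) and stem-loops from GENCODE M21 transcripts. All 69 genes matched a RefSeq entry and 62 a promoter window.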

Additional observations from a re-analysis of the deposited data

Results flagged for a closer look

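In 46 sets of 4 values, a highest or lowest library was compared with the range of its group, and 5 stood far from the others. A rate of about 1 in 20 by chance is for independent sets of normally distributed values. These sets are not independent, since the sum of all genes holds the H2A sum. A set whose other 3 values are 0, as for Hist2h3c1, is flagged whatever its highest value. The 5 are therefore not read as an excess. Ccna2-KO library 4 stood apart in the summed H2A level (56.2 CPM), in the sum of all clustered histone genes (553 CPM, against 366 to 388 CPM in the other 3) and in Hist2h3c1 (1.14 CPM, against 0 in the other 3). WT library 1 stood apart in the sum of all clustered histone genes (433 CPM, against 326 to 340 CPM in the other 3) and in Hist1h4m (3.80 CPM, against 1.20 to 1.38 CPM in the other 3).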

How the results depend on the processing

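Hist1h3d passed in every gene-level alternative run, with log2 fold changes from 1.63 to 2.38 and adjusted p up to 0.0392, but was not called when single transcripts were tested. The count of clustered histone genes higher in Ccna2-KO was 1, and became 2 with no filter (Hist1h3d and Hist1h2ap, where Hist1h2ap had 3 to 18 counts in Ccna2-KO libraries and 0 to 2 in WT libraries) or with DESeq2, 0 with single transcripts (37 tested; 357 of all 38384 transcripts called), and 1 to 10 when single libraries were left out, 10 being without WT library 1. The count lower was 0, and 1 with the library set term. Over all genes 1924 were called, 2949 with DESeq2, 2892 with the set term and 972 to 4627 with single libraries left out. The replicate numbers did not pair the libraries (correlations of -0.07, -0.35, -0.26 and 0.15, with 1 library closest to its own number), and the replicate block called 987 genes, among them 1 clustered histone gene, Hist1h3d. The H1 sum ratio was -0.27 without Hist1h1c, alone or with the other 2 most counted genes, and 0.12 without WT library 1 as well. The H2A sum ratio was likewise 0.22 without Hist2h2aa1, and 0.72 without WT library 1 as well.

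Small fold changes turned sign. Hist1h1e (-0.03) was 0.044 with voom and 0.040 with the replicate block. H3f3a (-0.0013) was 0.0037 with RLE, 0.0013 with upper quartile, 0.00057 with no filter, 0.0043 with the 1 CPM filter, 0.0037 with DESeq2, 0.016 with voom and 0.018 with the block. With the set term Upf1 (-0.08) was 0.017 and Rnu2-10 (-0.35) was 0.25. With single libraries left out the ranges were -0.033 to 0.14 for Hist1h1c, -0.27 to 0.24 for Hist1h1e, -0.36 to 0.0054 for Hist2h2aa1, -0.068 to 0.16 for H3f3a, -0.036 to 0.14 for Krt8 and -0.58 to 0.24 for Ccna2. The cause was not tested. Low counts limit 35 genes to description.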
